A study of Homo sapiens with 6 samples.

Results

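Chromosome 19 carries the densest collection of zinc finger genes in the human genome. The genes described here are those of the deposited table with a symbol made of ZNF, a number and at most one letter from A to D, and with a position on chromosome 19. There were 247 of them among 38637 genes, and 228 had a mean of at least 20 over the 6 samples and were tested. RNA selected for polyA tails was sequenced from OVCAR8, a human ovarian cancer cell line of wild type genotype, after 72 h with DMSO, the solvent control, or with 2 nM pladienolide B, which inhibits the splicing factor SF3B1. Each group had 3 samples of this 1 line. The labels do not say whether they were separate cultures, so p-values measure only the spread between these samples. Every level below is the adjusted read count, the number of reads on a gene after the authors scaled the libraries to a common size.

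Proteins of this family hold rows of C2H2 zinc fingers, each a loop of amino acids folded around a zinc ion, with which they read DNA. Most members on chromosome 19 also begin with a KRAB box. That box binds TRIM28, which brings the histone methyltransferase SETDB1 and heterochromatin proteins to the DNA, and many KRAB proteins silence transposable elements in this way. The family grew by tandem duplication, so its members lie side by side in clusters and resemble each other in sequence. In the GENCODE v44 gene models, 246 of the 247 genes had a coding sequence. The exception was ZNF781, which the table lists as protein-coding and GENCODE as a long non-coding RNA overlapping a pseudogene. The proteins had a median of 12 fingers, from 1 in ZNF428 to 36 in ZNF208, and in 240 genes every finger was coded in the last exon. A KRAB A box was found in 163 proteins with a fixed amino acid pattern, and in 192 with a wider pattern that was added after the first had missed known KRAB proteins.

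The OVCAR8 label was compared with its markers. Of 8 Mullerian and epithelial markers, the keratin genes KRT7, KRT8 and KRT18 and the lineage factor PAX8 (4011 to 4581) were high and EPCAM lower, while WT1, MUC16 and CDH1 had under 50 in every library. KRT7 fell by 0.64 (limma adjusted p = 1.2e-05). KRT8, KRT18 and CDH1 rose by 0.265, 0.294 and 0.668 (adjusted p = 0.001, 0.0011 and 0.03), and PAX8, WT1 and EPCAM were not called. The summed level of the 8 markers was 75700 to 81800 in the control libraries and 77500 to 92800 in the treated ones. The summed level of 5 fibroblast markers, nearly all COL1A1, was 6700 to 6940 in the control libraries and 5720 to 6380 in the treated ones, with DCN at 0 in every DMSO library. The part of these shifts in the results was not tested. The sums of 5 leukocyte, 3 endothelial and 2 neural markers stayed under 100, with CD3E at 0 in every library. Libraries held 25006154 to 26130882 recovered reads in DMSO and 22621338 to 24036812 in pladienolide B. DMSO replicate 2 stood farther from the other DMSO libraries than those did from each other. The chi-square per degree of freedom over the tested genes was 7.82 and 7.71 against 2.04.

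The test across all genes passed 51% of the 14780 tested genes at an adjusted p of 0.05 (limma). Those with more RNA in pladienolide B made up 23.8% and those with less 27.2%. Of the 228 tested chromosome 19 ZNF genes, 29 were higher, or 12.7%, and 63 were lower, or 27.6%. The share that was lower was thus near that of all genes, and the share that was higher was below it. On the log2(value + 1) scale, no member rose at least 2-fold, beside 1.29% of all tested genes, and 7 members fell at least 2-fold, beside 1.65%. By the plain ratio of group means, ZNF442, at 203% of the control mean, and ZNF573, at 48.8%, also passed 2-fold. The values of the treated and control libraries did not overlap in 109 members, or 47.8%, and in 57.8% of all tested genes. The median log2 fold change of the members was −0.04 and that of all tested genes −0.01, while the lower quartile was −0.32 in the members and −0.24 in all genes. In bulk RNA, fewer cells of a kind and less RNA per cell cannot be told apart. The count of rises depended on single libraries: it was 18 without DMSO replicate 1, 16 without pladienolide B replicate 2 and 19 without pladienolide B replicate 3. Over all tested genes, 7534 were called with every library, and 6640, 6542 and 6676 in those settings. The count of falls stayed between 51 and 60 when any library was left out. Both counts also moved with the method. Upper-quartile scaling gave 37 rises and 55 falls, and DESeq2 gave 20 and 51.

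**Figure D1:**
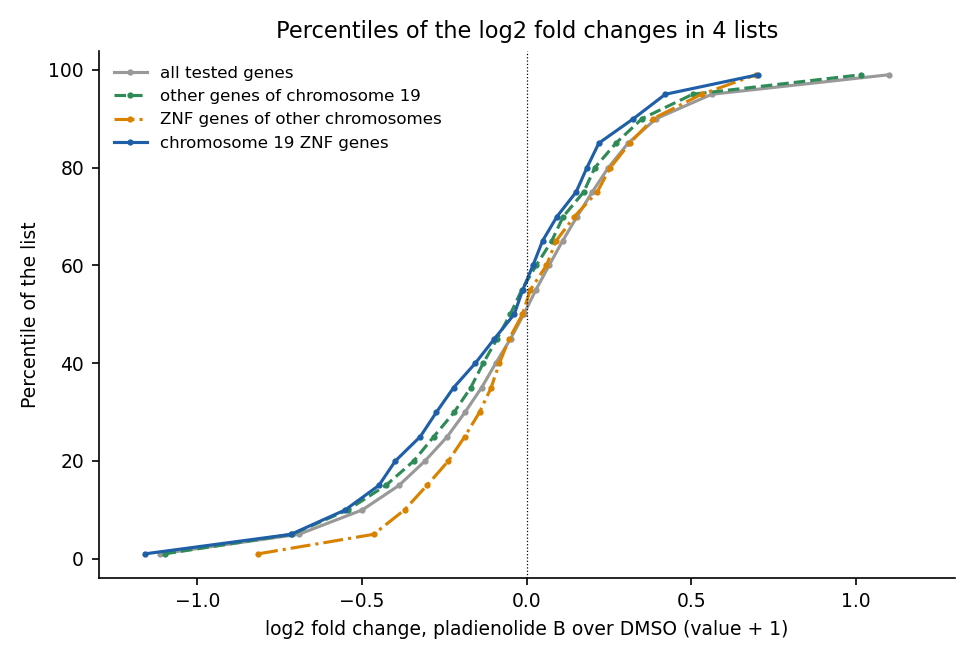
Log2 fold change (x axis, pladienolide B over DMSO on the log2(value + 1) scale) at the percentiles of 4 lists (y axis), with 1 point per percentile computed. The curve of the chromosome 19 ZNF genes lies to the left of the others from percentile 1 to percentile 45 and from percentile 60 to percentile 95. Its median is −0.04.

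ZNF genes on other chromosomes and the other genes of chromosome 19 were set beside the members. Of 238 tested ZNF genes elsewhere, 49 were higher (20.6%) and 50 lower (21%), and none fell at least 2-fold. Of 842 other tested genes on chromosome 19, 179 were higher (21.3%) and 260 lower (30.9%). The shares of all tested genes were 23.8% and 27.2%. The members were expressed at low levels, with a median adjusted read count of 189.6 against 350.2 in the ZNF genes elsewhere and 620.7 in all tested genes, and calls were more frequent at higher levels in the members and in all genes. Among genes with a mean of 100 to 500, 12.2% of 139 members and 19.2% of 3937 genes were higher, while 28.8% and 26.8% were lower. Among genes with a mean over 500, 22.6% of 31 members and 29.5% of all genes were higher, and 45.2% and 31.7% were lower.

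Sorted by position and split wherever neighbouring starts lay over 1 Mb apart, 236 members fell into 9 clusters of at least 5, numbered from the short arm to the end of the long arm. The change was uneven along them. In cluster 4, from 19.7 to 24.1 Mb beside the centromere, 17 of 30 tested members were lower, or 56.7%, and 1 was higher, with a median log2 fold change of −0.34. In cluster 6, from 36.2 to 37.8 Mb, 9 of 27 were lower, or 33.3%, and 1 was higher, with a median of −0.27. Cluster 9, the last before the telomere (55.5 to 58.5 Mb), had 20 of 58 lower, or 34.5%, and 4 higher around a median of −0.09. Clusters 2 and 3 on the short arm, at 7.1 to 9.8 Mb and 11.5 to 12.6 Mb, had medians of 0.11 and 0.15. In them 5 of 14 members (35.7%) and 4 of 21 (19%) were higher, and 3 and 1 were lower. Of all tested genes, 23.8% were higher and 27.2% lower. The share of higher members in cluster 3 was thus below that of all genes. The remaining clusters had medians of 0.06 (cluster 1), −0.02 (cluster 5), −0.04 (cluster 7) and 0.03 (cluster 8). When any one library was left out, the count of lower members was between 13 and 19 in cluster 4 and between 8 and 11 in cluster 6.

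**Figure D2:**
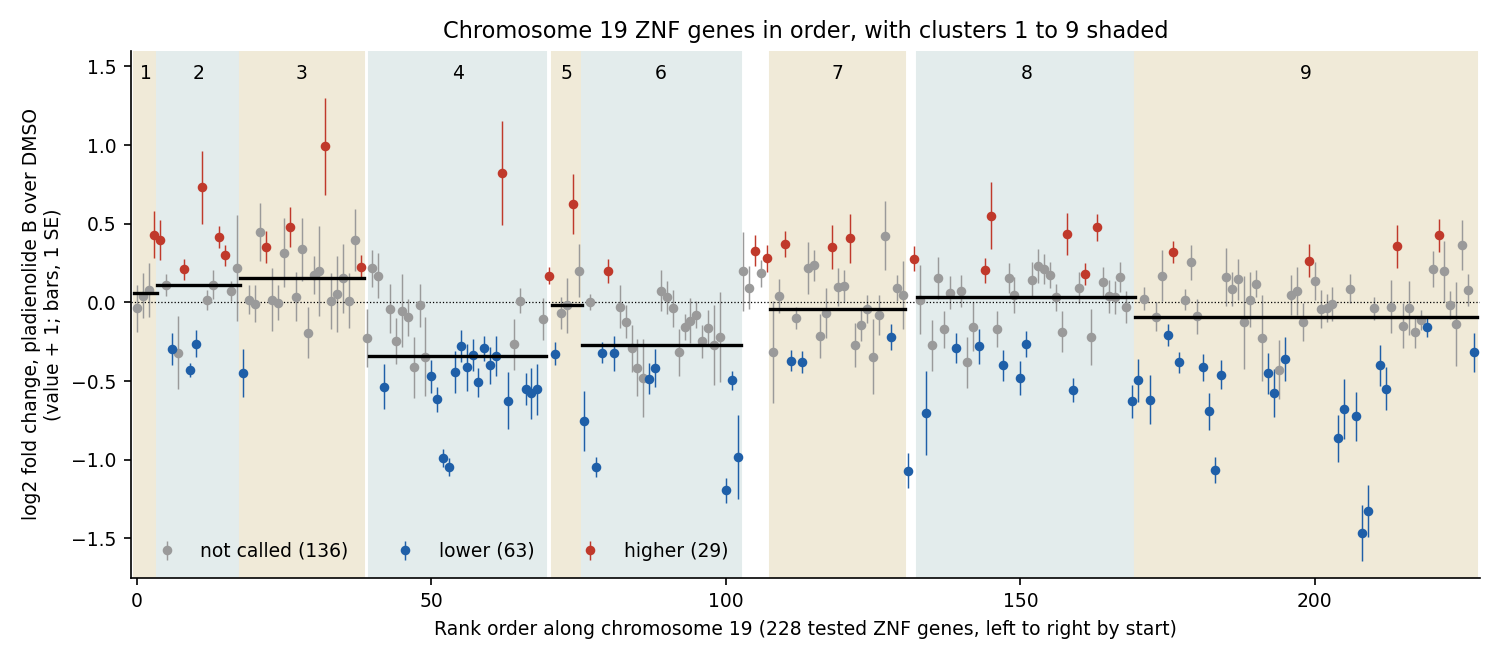
Log2 fold change (y axis, points with bars of 1 SE) of the 228 tested chromosome 19 ZNF genes in their order along the chromosome (x axis, rank). Shading marks clusters 1 to 9 and black lines their medians. Blue points mark the 63 lower genes, 17 of them in cluster 4, 9 in cluster 6 and 20 in cluster 9, and 29 red points mark the higher genes. The black lines of clusters 4 and 6 lie lowest, at −0.34 and −0.27.

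The medians were read in each library as the deviation of each gene from its own DMSO mean. In cluster 4 they were 0.04, 0.03 and −0.07 in DMSO and −0.28, −0.44 and −0.27 in pladienolide B. In cluster 6 they were 0.06, −0.06 and −0.01 in DMSO and −0.29, −0.25 and −0.25 in pladienolide B. The treated and control libraries did not overlap in either cluster, and the gap was wider than the spread within each group. They did not overlap in clusters 2 and 9 either, by narrower gaps. In cluster 2 the control medians were −0.052 to 0.054 and the treated ones 0.076 to 0.153, and in cluster 9 they were −0.033 to 0.018 and −0.084 to −0.065. The medians of all tested genes lay between −0.01 and 0.01 in every library. Neighbours resembled each other. Over 210 pairs of adjacent tested members within a cluster, the log2 fold changes had a Pearson r of 0.35 and a Spearman rho of 0.32, a description over genes that share the same 6 libraries. Both genes were below 0 in 83 pairs and above 0 in 51, and 76 pairs had opposite signs.

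**Figure D3:**
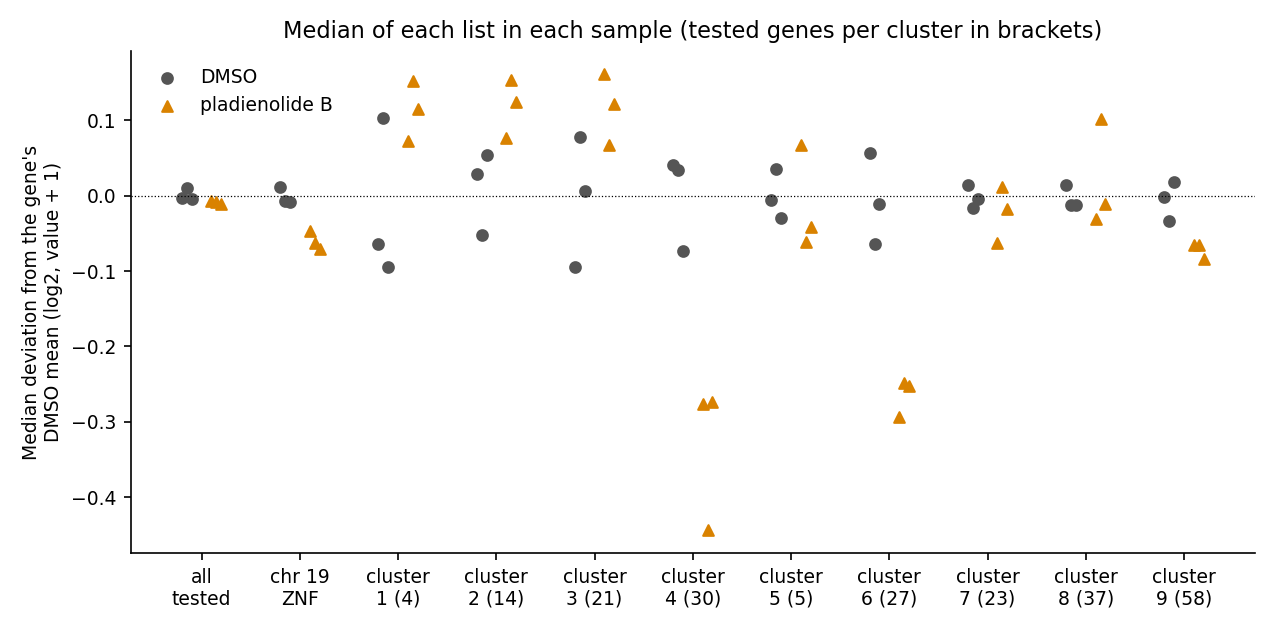
Median deviation from the gene's DMSO mean (y axis, log2 scale) in each of the 6 libraries for all tested genes, all tested chromosome 19 ZNF genes and each cluster (x axis). The pladienolide B triangles of clusters 4 and 6 lie between −0.44 and −0.25, below every DMSO circle.

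Cluster 4 held the longest unbroken stretch of falls. From ZNF85 to ZNF257 (GRCh38 chr19:20923227-22091480), 12 consecutive tested members were all lower, over 1.17 Mb, and the smallest change among them was −0.27 on the log2 scale. ZNF714 and ZNF431 lie next to each other in it and were among the 5 members with the most reads. ZNF714 had 3836, 3413 and 3594 in DMSO and 1850, 1660 and 1961 in pladienolide B. ZNF431 had 3071, 3019 and 2881 in DMSO and 1340, 1443 and 1568 in pladienolide B. The groups lay far apart in both genes. ZNF714 fell by 0.99 on the log2 scale (SE 0.06, limma adjusted p = 2.5e-09), and ZNF431 fell by 1.05 (SE 0.056, adjusted p = 6.3e-10). ZNF430, just before them, went from 682 ± 7.29 (SD, n = 3) to 446 ± 43.8 and ZNF100, farther along, from 498 ± 15.4 to 352 ± 43.6. Farther toward the centromere, ZNF675, ZNF681 and ZNF726 had log2 fold changes of −0.55, −0.58 and −0.55. ZNF254, nearer still to the centromere, was not called, with a log2 fold change of −0.11.

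Other members of the cluster did not share this change. ZNF91, which represses SVA retrotransposons, had 412, 393 and 388 in DMSO and 384, 427 and 393 in pladienolide B. The groups overlapped, with a log2 fold change of 0.01 (SE 0.079, limma adjusted p = 0.93). ZNF93, a repressor of LINE-1 elements, had 139, 166 and 113 in DMSO and 113, 116 and 119 in pladienolide B. Its log2 fold change was −0.25 (SE 0.148, adjusted p = 0.18), and it passed the threshold (adjusted p = 0.045) when DMSO replicate 3 was left out. ZNF728 was the only higher member and is named after its values were seen: it had 14.03, 14.12 and 22.84 in DMSO and 43.5, 20.6 and 30.1 in pladienolide B. Those groups overlapped, and the adjusted p was 0.048 (log2 fold change 0.82, SE 0.33). The 7 members of this cluster that were not tested had means under 4, among them ZNF486, ZNF676 and ZNF729.

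The clusters also hold genes that are no members, and these were read in the same fit. In cluster 4, 9 such genes were tested, 5 were lower and none higher (limma, median −0.52). 4 of the 5 were unnamed long non-coding RNAs, and the fifth was LINC00664. It had 374 ± 17.1 in DMSO and 233 ± 23.0 in pladienolide B, and fell by 0.68. One of the lower long non-coding RNAs overlaps a member. In cluster 6, 7 of 12 such genes were lower and none higher, with a median of −0.38. However, 3 of those 7 were the zinc finger genes ZFP14, ZFP30 and ZFP82, and ZNF566-AS1 overlaps a member. Without zinc finger genes and genes that overlap a member, 6 genes were left in cluster 4, of which 4 were lower. In cluster 6, 4 were left, of which 3 were lower. All of these genes were long non-coding RNAs or pseudogenes, and LINC00665, a lower gene of cluster 6, had overlapping groups. Of all tested genes, 27.2% were lower. In clusters 2 and 9, the other genes had medians of −0.08 over 35 and −0.12 over 31 genes.

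In cluster 6 the falls were led by ZNF781, ZNF566 and ZNF573. ZNF781 had 603, 671 and 583 in DMSO and 268, 272 and 269 in pladienolide B, and fell by 1.19 (SE 0.08, limma adjusted p = 7.8e-09). ZNF566 had 2005, 1676 and 1898 in DMSO and 879, 878 and 934 in pladienolide B, and fell by 1.05 (SE 0.064, adjusted p = 2.7e-09). The treated libraries of both genes lay far below every control library and close to each other. An antisense gene, ZNF566-AS1, overlaps ZNF566 and fell from 604 ± 53.9 to 416 ± 47.8. The counting is not stated to use strand, so reads of the pair cannot be told apart. ZNF573, with fewer reads, had 32.8, 34.3 and 47.5 in DMSO and 16.7, 19.2 and 20.04 in pladienolide B, and fell by 0.98 (SE 0.268, adjusted p = 0.0061). ZNF781, ZNF607 and ZNF573 are consecutive, and all 3 were lower.

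ZNF146 lies in the same cluster, has fingers but no KRAB box, and was the member with the highest level per kb of transcript, 977 in DMSO and 979 in pladienolide B. Its adjusted read counts were 3195, 3479 and 3140 in DMSO and 3406, 3213 and 3211 in pladienolide B. These overlapped, with a log2 fold change of 0.00 (SE 0.048, limma adjusted p = 0.96). ZNF382, often methylated in tumours, went from 198 ± 13.1 to 158 ± 2.72 and fell by 0.32 (adjusted p = 0.023), and this call was lost with DESeq2 and without 4 of the 6 libraries in turn. ZNF529 was the only higher member, from 344 ± 3.68 to 395 ± 6.27.

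The 2 largest falls of all members were in cluster 9, in a short stretch where ZNF586, ZNF552 and ZNF587B are consecutive and were all lower. ZNF552 had 112, 124 and 108 in DMSO and 43.7, 45.8 and 34.1 in pladienolide B, so 36% of the control mean remained. It fell by 1.46 on the log2 scale (SE 0.178, limma adjusted p = 5.2e-06). ZNF587B had 256, 250 and 242 in DMSO and 105, 127 and 72.2 in pladienolide B, and fell by 1.32 (SE 0.164, adjusted p = 6.2e-06). No treated library of either gene reached a control library, which the choice of the largest falls required. These genes resemble each other and ZNF814: 10.5% of the 100-base windows of the ZNF552 transcript and 3.21% of those of ZNF587B occur unchanged in the others, so the split of reads between them is uncertain. ZNF814 went from 133 ± 6.13 to 101 ± 6.69.

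Between ZNF587B and ZNF814 lies ZNF587, and nearby its near copy ZNF417, a pair known to repress HERV-K elements. ZNF587 had 444, 440 and 467 in DMSO and 443, 456 and 419 in pladienolide B, with a log2 fold change of −0.04 (SE 0.075, limma adjusted p = 0.71). ZNF417 had 153, 152 and 173 in DMSO and 94.0, 113 and 120 in pladienolide B, and fell by 0.55 (SE 0.136, adjusted p = 0.0031). The groups overlapped in ZNF587 and not in ZNF417, but 14.7% and 21.7% of their transcript windows are shared with other genes, each other included, so their counts are uncertain. A stretch farther toward the centromere, ZNF667, ZNF471, ZNF470 and ZNF71, was lower in all 4 genes. ZNF470 had 544, 522 and 507 in DMSO and 258, 234 and 260 in pladienolide B, and fell by 1.06 (SE 0.083, adjusted p = 4.2e-08). ZNF551 went from 207 ± 43.8 to 112 ± 9.58, and ZNF671, often methylated in carcinomas, from 75.8 ± 9.15 to 47.1 ± 6.22 (it fell by 0.68, adjusted p = 0.0069). ZNF274, which binds the coding ends of other zinc finger genes and recruits SETDB1 there, had 801, 852 and 775 in DMSO and 715, 762 and 770 in pladienolide B. Its groups did not overlap, but the log2 fold change of −0.11 did not pass the test (SE 0.063, adjusted p = 0.16).

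**Figure D4:**
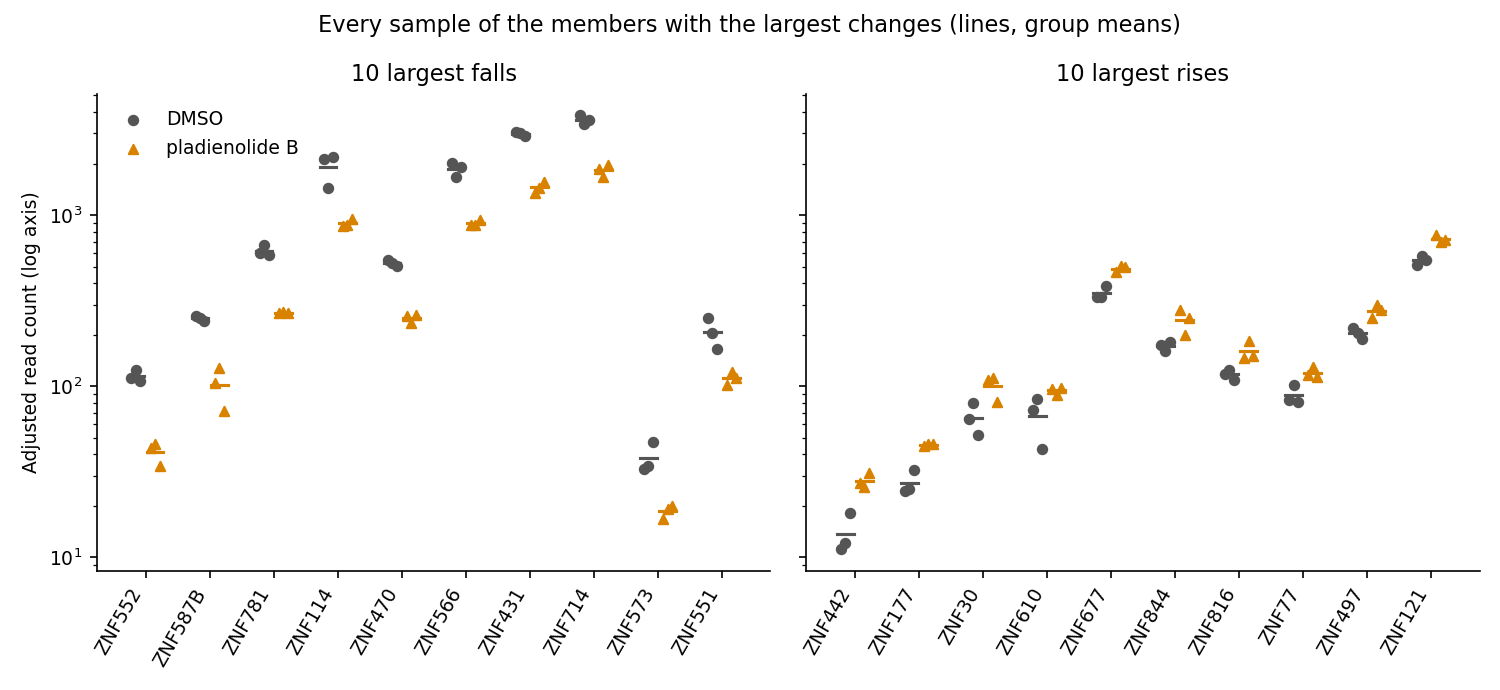
Adjusted read count (y axis, log scale) of the 10 members with the largest falls (left) and rises (right) in every library, with circles for DMSO, triangles for pladienolide B and lines for group means. In ZNF714 the circles lie between 3413 and 3836 and the triangles between 1660 and 1961, and in ZNF442 the circles lie between 11.2 and 18.1 and the triangles between 25.7 and 31.1.

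Only 11 members lay outside the clusters, and 9 of them were tested. ZNF114 was among them and had the largest fall there: 2124, 1436 and 2178 in DMSO and 862, 879 and 950 in pladienolide B. It fell by 1.07 (SE 0.111, limma adjusted p = 9.2e-07), DMSO replicate 2 was the lowest control library, and the groups stayed apart. An antisense gene, ZNF114-AS1, overlaps it, and its part in the count was not tested. In cluster 8, the largest change was that of ZNF649, with 40.3, 53.4 and 50.2 in DMSO and 19.99, 29.9 and 40.1 in pladienolide B (adjusted p = 0.036), a call lost in several alternative settings. ZNF331, an imprinted gene at the end of that cluster, had 502, 399 and 460 in DMSO and 257, 318 and 306 in pladienolide B. It fell by 0.63 (SE 0.103, adjusted p = 1e-04), and its groups did not overlap.

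The rises were smaller. ZNF442 in cluster 3 had 11.2, 12.1 and 18.1 in DMSO and 27.1, 25.7 and 31.1 in pladienolide B, with a log2 fold change of 0.99 (SE 0.309, limma adjusted p = 0.014). The groups did not overlap, which the choice of the largest rises required. However, its mean of 20.9 was the lowest of any tested member. The first member under the limit was ZNF233, with a mean of 14.4. ZNF177 in cluster 2 had 24.4, 25.2 and 32.3 in DMSO and 44.8, 45.9 and 46.1 in pladienolide B (log2 fold change 0.73, SE 0.23, adjusted p = 0.014). Its position overlaps the readthrough gene ZNF559-ZNF177, and how reads were split between them is not stated. ZNF30 in cluster 5 had 64.0, 79.6 and 51.7 in DMSO and 108, 112 and 81.2 in pladienolide B, where the lowest treated library lay just above the highest control. ZNF30, ZNF442, ZNF610, ZNF816, ZNF77 and ZNF225 each lost significance without some library.

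Rises in genes with more reads had smaller standard errors. ZNF677 in cluster 8 had 331, 332 and 387 in DMSO and 463, 503 and 496 in pladienolide B, with a log2 fold change of 0.48 (SE 0.085, limma adjusted p = 2e-04). ZNF121 in cluster 2 had 511, 578 and 550 in DMSO and 768, 700 and 718 in pladienolide B, with a log2 fold change of 0.41 (SE 0.07, adjusted p = 0.00014). The treated libraries of both genes stood clear of the controls, which the choice of the largest rises required. ZNF844 rose from 172 ± 10.3 to 243 ± 41.2, ZNF816 from 118 ± 7.80 to 160 ± 20.2 and ZNF497 from 204 ± 16 to 275 ± 24.2. ZNF77, from 88.5 ± 11.5 to 119 ± 8.42, and ZNF225, from 92.4 ± 13 to 123 ± 13.2, had the largest called changes of clusters 1 and 7. In the same cluster 2 as ZNF121, ZNF699 had the most reads of any member, 4637, 4353 and 4423 in DMSO and 3377, 3192 and 3391 in pladienolide B, and fell by 0.43 (SE 0.044, adjusted p = 7.5e-07).

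Several of the tested genes named here overlap another gene, so their counts are uncertain. ZNF442 overlaps ZNF563, ZNF816 the readthrough gene ZNF816-ZNF321P and ZNF71 the readthrough gene ZNF71-SMIM17, each on the same strand. On the opposite strand, ZNF529 and ZNF382 overlap each other, ZNF146 overlaps ZNF565, ZNF100 overlaps CCNYL6 and ZNF681 overlaps RPSAP58. ZNF30, ZNF497, ZNF529, ZNF649 and ZNF667 have antisense genes named after them, and ZNF90, ZNF91, ZNF225 and ZNF791 overlap unnamed loci.

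The 19 members that were not tested had means from 0.475 to 14.4. ZNF175, known for limiting HIV transcription, had 2, 0 and 1 recovered reads in DMSO and 0 in each pladienolide B library, so no difference was detectable at this depth.

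The corepressor genes through which KRAB proteins act were read from a list of 38, all of them tested. 8 were higher, or 21.1%, and 11 lower, or 28.9%, near the shares of all tested genes, with a median log2 fold change of −0.02. With upper-quartile scaling, 11 were higher and 9 lower. TRIM28, the direct partner of the KRAB box, went from 7983 to 9372 on average, a log2 fold change of 0.23 (SE 0.04, limma adjusted p = 0.00019). SETDB1 went from 561 to 570 (log2 fold change 0.03, SE 0.083, adjusted p = 0.82). CBX5, a heterochromatin protein, was the one called gene of the list past 0.5: it rose by 0.58 (SE 0.048, adjusted p = 7.5e-08). The helicase gene CHD4 of the NuRD complex rose by 0.30, and MTA1, another NuRD subunit, fell by 0.47. The maintenance DNA methyltransferase DNMT1 fell by 0.21, ATRX, a chromatin remodeller of heterochromatin, by 0.44, and SUV39H2, a histone methyltransferase, by 0.36. The count of higher genes was 5 to 12 when single libraries were left out.

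Chromosome 19 zinc finger genes with other kinds of symbols were read from a further list. 17 were found and 11 tested. ZFP14, ZFP30 and ZFP82, which lie in cluster 6, were lower: ZFP30 went from 1340 to 834 (log2 fold change −0.68, limma adjusted p = 1.7e-07), ZFP82 from 2342 to 1873 and ZFP14 from 87.4 to 52.2. ZSCAN18 and ZIK1 were higher, with log2 fold changes of 0.30 and 0.20. ZSCAN4 had no read in any library, and PEG3, an imprinted gene, had means of 0.652 and 2.04.

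Features of the proteins and transcripts were compared with the change as descriptions. Of 180 tested members with a KRAB A box by the wider pattern, 50 were lower (27.8%) and 19 higher (10.6%). Of 47 without it, 12 were lower (25.5%) and 10 higher (21.3%). Of all tested genes, 27.2% were lower and 23.8% higher, so both shares of lower members were near that of all genes. Members with under 8 fingers were lower in 12 of 28 (42.9%), those with 8 to 13 in 24 of 109 (22%). Those with 14 or more were lower in 26 of 90 (28.9%). The Spearman rho of finger number and log2 fold change was −0.05 over 227 genes. Members had a median transcript GC content of 42.3% against 48.7% in all tested genes, and clusters 4 and 6 the lowest of the clusters, 36.8% and 39.1%. Among genes with a GC content under 40%, 25 of 69 members were lower, or 36.2%, and 30.7% of 2316 genes of the whole table. The rho of GC content and change was 0.19 in the members, 0.21 in 237 ZNF genes elsewhere and 0.02 in all genes.

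The last intron was measured because in most members it precedes the exon that codes for the fingers. SF3B1 also takes part in the recognition of the branch point near the end of introns. Its median length was 4210 bases in the members, 2460 in ZNF genes elsewhere and 1460 in all tested genes with an intron. It was 6900 bases in lower members, 2680 in higher ones and 3530 in those not called. Of the 42 members whose last intron was at least 10 kb long, 22 were lower, or 52.4%, and 3 higher. The same limit gave 29.2% lower in 1256 genes of the whole table and 12 of 32 in ZNF genes elsewhere. The rho of intron length and change was −0.33 over 228 members, −0.15 over 235 ZNF genes elsewhere and 0.00 over 13681 genes.

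This relation and the clusters go together. The median last intron was 12100 bases in cluster 4 and 10400 in cluster 6, and no more than 5620 in any other. Outside these clusters only 8 members had one of 10 kb or more, of which 4 were lower, and the rho over 171 members was −0.07. Within cluster 6 it was −0.49 over 27 genes, and within cluster 4 −0.23 over 30. It was positive in clusters 2 and 3, at 0.45 over 14 and over 21 genes. In the smaller clusters 1 and 5 it was 0.20 and 0.30. Clusters 7, 8 and 9 had values of 0.05, 0.02 and −0.09. Cluster and intron length cannot be told apart for most of the long introns.

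**Figure D5:**
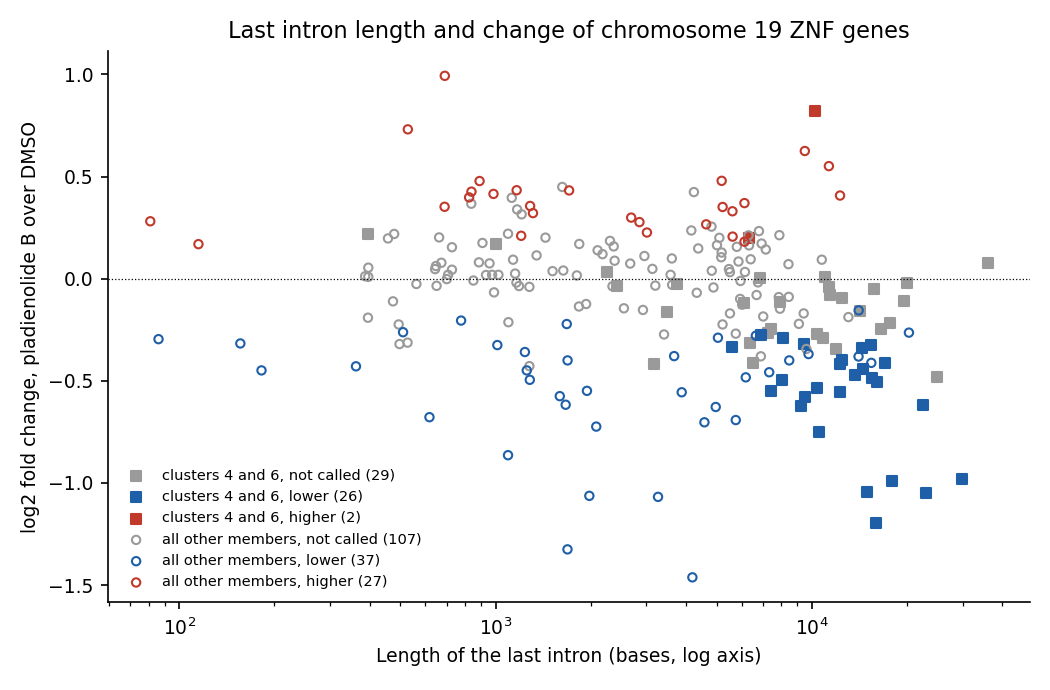
Length of the last intron (x axis, bases on a log scale) and log2 fold change (y axis) of the 228 tested members, with squares for clusters 4 and 6, circles for all others, and colours for the call. Of the 42 points at 10 kb or more, all but 8 are squares, and the rho over all points is −0.33.

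The ends of these introns are shown for the 5 largest falls and the 5 largest rises. Each is the last 50 bases of the last intron (hg38, read 5′ to 3′ on the strand of the gene), with the AG of the splice site in capitals. ZNF781 has no coding sequence in GENCODE, so no finger exon follows its intron there. They let the paralogs and the pyrimidine-rich stretch be seen.
ZNF552 (chr19:57809104-57809153, minus strand): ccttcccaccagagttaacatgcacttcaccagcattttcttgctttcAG
ZNF587B (chr19:57840788-57840837, plus strand): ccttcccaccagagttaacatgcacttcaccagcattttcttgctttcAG
ZNF781 (chr19:37670557-37670606, minus strand): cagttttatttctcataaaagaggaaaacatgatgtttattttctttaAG
ZNF114 (chr19:48285711-48285760, plus strand): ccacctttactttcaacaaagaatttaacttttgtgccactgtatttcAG
ZNF470 (chr19:56576663-56576712, plus strand): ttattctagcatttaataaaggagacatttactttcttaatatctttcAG
ZNF442 (chr19:12351319-12351368, minus strand): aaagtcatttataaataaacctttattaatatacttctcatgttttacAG
ZNF177 (chr19:9380618-9380667, plus strand): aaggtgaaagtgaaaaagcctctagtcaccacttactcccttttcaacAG
ZNF30 (chr19:34943173-34943222, plus strand): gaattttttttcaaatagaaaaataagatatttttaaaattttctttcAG
ZNF610 (chr19:52365648-52365697, plus strand): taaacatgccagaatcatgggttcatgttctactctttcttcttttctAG
ZNF677 (chr19:53238558-53238607, minus strand): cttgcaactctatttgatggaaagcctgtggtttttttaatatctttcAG
ZNF552 and ZNF587B differed at 0 of the 50 bases, and they were the pair with the deepest falls. The share of C and T in the 20 bases before the AG ranged from 70% in ZNF781 and ZNF442 to 95% in ZNF610 in this set, and the pair at the low end holds a fall and a rise. Its median was 75% over all 228 members and 80% over all tested genes, and 80% in lower and 75% in higher members. Its rho with the change was −0.14 in the members and 0.02 in all genes.

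Promoter windows, from 250 bases before to 50 bases after the start of each gene in RefSeq on GRCh38.p14, were found for 216 members, 203 of them tested. The 5-base motif CCAAT, bound by the factor NF-Y, was searched on both strands and stood in 52.7% of the windows of tested members, in 36.5% of those of 11386 tested genes and in 35.7% of all 27305. It was in all 26 windows of tested members of cluster 4, on the strand of the gene in each, at a median of 53 bases from the start (15 to 70). Cluster 3 had it in 19 of 21 windows and cluster 6 in 6 of 25. The GC box GGGCGG stood in 66.5% of the members, 69.6% of the tested genes and 44.6% of all windows, and in 7 of 25 in cluster 6. The cAMP response motif TGACGTCA was in 5 of 13 windows of cluster 2, 3.45% of tested members, 3.15% of tested genes and 1.98% of all windows. By call, CCAAT was in 56.6% of lower, 52.2% of higher and 51.2% of the other tested members.

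Parts of 4 windows are shown, cut where the annotated gene begins, with CCAAT and GGGCGG in capitals on either strand. They are from the lower members of cluster 4 with the most reads, a member of that cluster that was not called, and a higher member of cluster 3. Only windows with CCAAT on either strand in the part shown could be chosen, so its presence in all 4 was set by the choice. They were chosen after the values were seen.
ZNF714 (chr19:21081953-21082158, plus strand): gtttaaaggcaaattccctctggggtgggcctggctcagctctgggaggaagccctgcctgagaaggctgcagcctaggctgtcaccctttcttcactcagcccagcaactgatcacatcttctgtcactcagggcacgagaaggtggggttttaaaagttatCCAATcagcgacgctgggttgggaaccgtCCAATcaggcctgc
ZNF431 (chr19:21141790-21142008, plus strand): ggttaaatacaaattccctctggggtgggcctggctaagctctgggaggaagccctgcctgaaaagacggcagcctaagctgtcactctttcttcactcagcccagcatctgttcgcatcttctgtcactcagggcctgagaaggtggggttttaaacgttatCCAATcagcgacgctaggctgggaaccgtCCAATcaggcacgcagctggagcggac
ZNF90 (chr19:20077750-20077993, plus strand): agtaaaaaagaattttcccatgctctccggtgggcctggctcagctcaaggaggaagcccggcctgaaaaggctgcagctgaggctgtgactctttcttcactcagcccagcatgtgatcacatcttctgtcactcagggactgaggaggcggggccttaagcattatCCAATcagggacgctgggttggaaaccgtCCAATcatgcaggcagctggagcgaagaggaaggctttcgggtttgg
ZNF791 (chr19:12610670-12610917, plus strand): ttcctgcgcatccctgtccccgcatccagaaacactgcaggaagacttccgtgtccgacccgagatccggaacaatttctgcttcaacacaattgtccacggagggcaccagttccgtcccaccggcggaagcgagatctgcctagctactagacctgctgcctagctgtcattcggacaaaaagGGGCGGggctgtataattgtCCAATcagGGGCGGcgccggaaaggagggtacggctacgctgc
ZNF714 and ZNF431 differed at 19 of 206 bases when laid side by side without gaps, and each has a pair of CCAAT motifs. ZNF90 has the same pair, with 200, 178 and 196 reads in DMSO and 175, 162 and 202 in pladienolide B, and its groups overlapped (log2 fold change −0.09, SE 0.117, limma adjusted p = 0.53). ZNF791 has 1 CCAAT between GC boxes and rose by 0.23 (SE 0.076, adjusted p = 0.021), from 417 ± 2.38 to 489 ± 32.2.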

How the data were processed

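RNA sequencing of 6 samples was analysed from the authors' gene table. The authors deposited a signal for each gene and sample, read counts adjusted to a common library size, besides a log2 fold change, a p-value and a q-value of their own, which were not used. The study's methods give trimming and alignment with hisat2 to hg38, and the submitters' processing notes name hg19, HISAT2, HTSeq 0.12.4 and DESeq2. All 247 members lay over GENCODE v44 genes of the same symbol on hg38, so that build was used. How reads of overlapping genes or copies were counted is not given in the sources used here.

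The deposited signal could be traced to the quantile adjustment of edgeR, run at a dispersion of 0.0027 for every gene. Undoing that step gave whole reads within 0.02 for 100% of 96432 values of 10 or more and for 100% of 38801 smaller values above 0.3, and these recovered reads give the depth and entered the count tests used as alternatives (edgeR 4.0.16 quasi-likelihood with TMM, DESeq2 1.42.0). edgeR called 91 members and DESeq2 71, beside 92 in the main test.

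The main test was limma 3.58.1 in R 4.3.3 with a variance trend, two-sided, on log2(value + 1), over the 14780 genes with a mean of at least 20, with Benjamini-Hochberg adjustment over all of them and a threshold of 0.05. The pseudocount of 1 makes the fold changes of low genes smaller. The test was checked on simulated data. Lists are described by counts and medians without a set test. The members and lists were chosen with earlier results of these data known. Genes were named by a rule: the 10 largest rises and falls among members that passed the threshold with groups that do not overlap, the largest called change of each cluster, the 5 highest means, 10 genes with known roles, those beside the limit of 20, and corepressors past 0.5 with TRIM28 and SETDB1. Any other was named after its values were seen.

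Gene models came from GENCODE v44 canonical transcripts, matched for 95.6% of tested genes. Proteins were translated from them, in place of the RefSeq proteins that had been planned. A finger was C, 2 to 4 residues, C, 12 residues, H, 3 to 5 residues, H.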

Additional observations from a re-analysis of the deposited data

How the results depend on the processing

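No change of a named gene that passed the threshold turned its direction in any alternative. The medians of clusters 5, 7 and 8, which lie near 0, changed sign in some, cluster 5 also with upper-quartile scaling (0.014). Across other pseudocounts, filters, scalings and tests, between 71 and 93 members passed, against 92. No sign change occurred among the called members. Upper-quartile scaling moved the median of all genes to 0.02, that of the members to −0.006 and those of clusters 7 and 9 to −0.01 and −0.058. With a mean of at least 100, the median of cluster 6 was −0.162. Without the variance trend, 5 corepressor genes were higher. With no filter, the replicate block or DESeq2, 1 gene with another kind of symbol was higher in place of 2. Tested members that overlap no other gene numbered 149, of which 19 were higher and 41 lower, fewer because fewer were counted. With clusters split at 0.5 Mb, the part of cluster 9 with most of its members had a median of −0.038. At 2 Mb, clusters merged, and the medians were −0.233 (cluster 5), 0.07 (cluster 7), and −0.035 for clusters 8 and 9 as one. When single libraries were left out, the ranges were 16 to 27 for higher members, 5 to 12 for higher corepressor genes, 1 to 2 for higher genes with other symbols, and −0.064 to −0.049 for the median of the members. For the medians of clusters they were 0 to 0.113 (cluster 1), 0.041 to 0.159 (cluster 2), 0.037 to 0.198 (cluster 3), −0.058 to 0.046 (cluster 5), −0.309 to −0.211 (cluster 6), −0.102 to 0.022 (cluster 7), −0.014 to 0.064 (cluster 8) and −0.118 to −0.064 (cluster 9). The causes were not tested. The labels give both groups the same replicate numbers. The deviations of same-numbered samples had correlations of −0.04, −0.04 and 0.03, so no shared deviation was seen. With 3 samples per group, this cannot show whether they were paired. With the replicate block 86 members passed, 85 of them also without it. ZNF442, ZNF610, ZNF225, ZNF649, ZNF382, ZNF77, ZNF30 and ZNF816 each fell short of the threshold in some setting. Members with few reads limit the precision.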
